A study of Homo sapiens with 12 samples.

Results

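The levels of 6 genes that the study names in its signature of drug resistance in hepatocellular carcinoma (HCC) were examined: ALYREF, MFSD5, ATAD3A, CHAF1B, NR3C2 and SORBS2. They were found by symbol in the deposited tables, each with a single Ensembl identifier, and make up 6 of the 27249 Ensembl genes listed there. The signature genes were chosen by their difference in expression between resistant and parental cells in these same samples and between resistant and sensitive patient-derived xenografts. The level of the 6 genes in resistant against parental cells is therefore given below as a description, without a test.

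RNA was sequenced from 12 samples in 4 groups of 3: Huh7 parental cells, Huh7 sorafenib-resistant cells, HepG2 parental cells and HepG2 sorafenib-resistant cells. Huh7 and HepG2 are human lines from liver tumours, and sorafenib is a multikinase inhibitor given in advanced HCC. According to the labels, the resistant cells came from their parental line by exposure to sorafenib over 8 months, from a first dose of 10 μmol that was raised stepwise, and the parental cells received no treatment. Each resistant line is a surviving population of a single parental line, so the 3 samples of a group are repeats of that population and not independent selections of resistance. Nothing in the labels says that the samples of a group were separate cultures, and p-values then measure the spread between these samples, which may be technical.

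The 6 genes do unrelated work in the cell. ALYREF is an adaptor of the TREX complex, which is loaded on spliced transcripts and hands them to the export receptor NXF1 at the nuclear pore. CHAF1B is the middle subunit of chromatin assembly factor 1, which places histones H3 and H4 on newly copied DNA behind the clamp PCNA. ATAD3A is an ATPase of the mitochondrial inner membrane that helps to organise mitochondrial DNA nucleoids, and MFSD5 is a membrane protein of the major facilitator family that carries molybdate into cells. NR3C2 is the mineralocorticoid receptor, a steroid-activated transcription factor related to the glucocorticoid receptor NR3C1. SORBS2 is an adaptor of the SoHo family that links actin fibres and cell adhesions to signalling proteins.

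The values are FPKM, reads scaled to the exon length of the gene and the depth of the sample, and a sample rested on 12290128 to 19285970 reads. Read numbers behind the 6 genes ran from 17 for SORBS2 in a resistant Huh7 sample to 1676 for MFSD5, and without molecular identifiers these reads are not independent molecules. Defining genes of the hepatocyte lineage, such as albumin, were all at 1 FPKM or more in all 4 groups (10 of 10), with a summed level between 5481 and 9128 FPKM. The lists for leukocytes, endothelial cells and fibroblasts summed to between 1.42 and 4.87 FPKM in each group, with the macrophage marker CD68 at 0.0503 FPKM or less. The 4 cholangiocyte markers went different ways. KRT7 was near 0 in every group. In resistant against parental Huh7 cells KRT19 was at 70.4 against 7.18 FPKM and EPCAM at 25.4 against 6.14 FPKM, while SOX9 was at 52.3 against 78.1 FPKM. In HepG2 KRT19 was at 13.4 against 7.19 FPKM, EPCAM at 40.01 against 45.4 FPKM and SOX9 at 87.1 against 132.7 FPKM. Their part in the values of the 6 genes was not tested. In a bulk sample, fewer cells that express a gene and less RNA of it per cell cannot be told apart.

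The means of 4 of the 6 genes, ALYREF, CHAF1B, MFSD5 and ATAD3A, were higher in resistant than in parental cells of both lines, and those of NR3C2 and SORBS2 were lower in both. In Huh7 cells the values of resistant and parental samples did not overlap for any of the 6 genes, 4 of them higher and 2 lower. Of the 12554 genes tested in Huh7, 35.2% were higher and 39.2% were lower without overlap, so this separation was common in that line. In HepG2 cells 5 of the 6 genes did not overlap, 3 of them higher and 2 lower, where 24.9% of the 11762 genes tested were higher and 15.5% lower in this way. The exception was ATAD3A. The shares cover tested genes only, and SORBS2 in Huh7 and NR3C2 in HepG2 were too low to be tested. NR3C2 in Huh7 and SORBS2 in HepG2 met the expression limit through parental cells alone and so had to be lower.

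**Figure D1:**
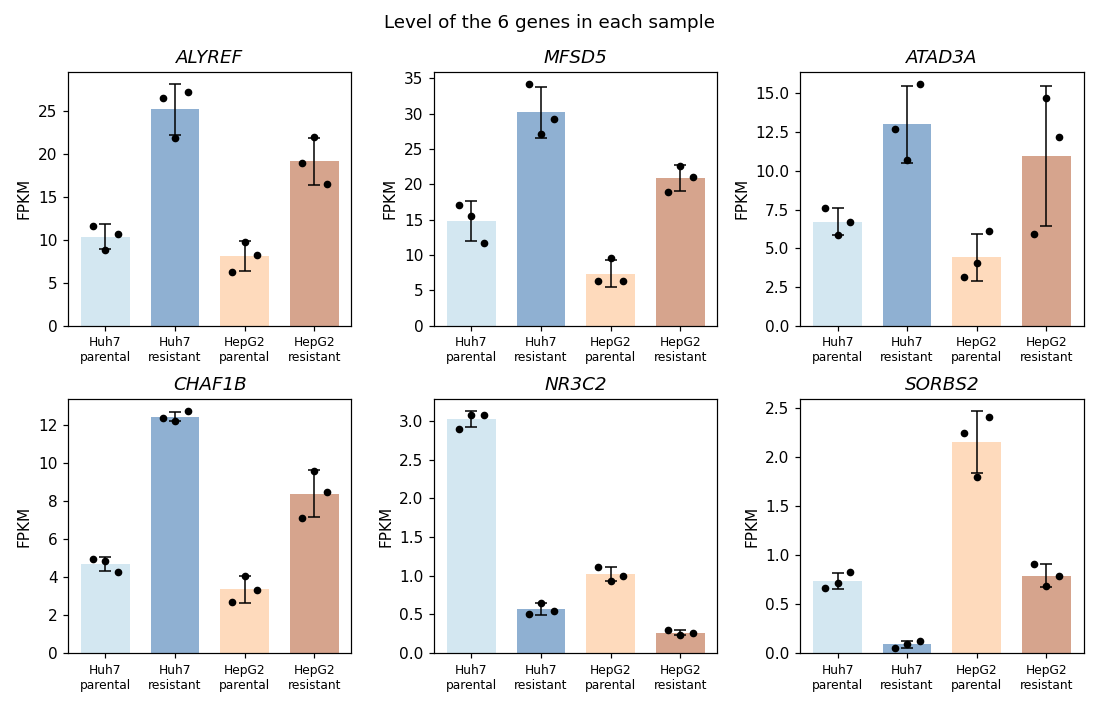
FPKM (y axis) of the 6 genes in the 4 groups, with a point for each sample, a bar for the mean of 3 samples and an error line of 1 SD. ALYREF, MFSD5, ATAD3A and CHAF1B stood higher in resistant cells and NR3C2 and SORBS2 lower; the ATAD3A samples of HepG2 overlapped, with resistant replicate 1 at 5.95 FPKM and parental replicate 3 at 6.09 FPKM.

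ALYREF lies on chromosome 17 (GRCh38, 81887844 to 81891586, minus strand). Its level was 26.5, 21.8 and 27.2 FPKM in the 3 resistant Huh7 samples and 11.6, 8.86 and 10.6 FPKM in the 3 parental ones. In HepG2, the resistant samples had 18.9, 21.9 and 16.5 FPKM and the parental samples 6.29, 9.77 and 8.20 FPKM. The lowest resistant sample was above the highest parental sample in both lines. The ratio of means was 2.42-fold in Huh7 and 2.36-fold in HepG2, and the change on the log2 FPKM scale differed between the lines by 0.03 ± 0.27 (SE), which is less than its error. By mean, the groups ranked resistant Huh7, resistant HepG2, parental Huh7 and parental HepG2, and neighbours within the resistant pair and within the parental pair overlapped.

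CHAF1B lies on chromosome 21 (36385378 to 36419015, plus strand). The resistant Huh7 samples had 12.4, 12.2 and 12.7 FPKM and the parental ones 4.93, 4.86 and 4.26 FPKM. In HepG2 its level was 7.10, 9.55 and 8.48 FPKM in resistant samples and 2.66, 4.04 and 3.33 FPKM in parental samples. Resistant cells were thus 2.66-fold higher in Huh7 and 2.51-fold higher in HepG2, with no overlap in either line. No neighbouring groups overlapped in the order resistant Huh7, resistant HepG2, parental Huh7 and parental HepG2. The log2 FPKM changes of the lines differed by 0.08 ± 0.22 (SE).

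The profiles of ALYREF and CHAF1B over the 12 samples were closer to each other than to that of any other gene among the 13800 compared. After centring log2(FPKM + 1) on each gene's mean, they differed by a root mean square of 0.149, where ALYREF itself varied by 0.640 and CHAF1B by 0.647 around their means. The next most like genes were MRPS15 (0.168) and ZNRF3 (0.185) for ALYREF and COA3 (0.164) and DAG1 (0.169) for CHAF1B. MRPS15 encodes a mitochondrial ribosomal protein, ZNRF3 a ubiquitin ligase that lowers Wnt receptors, COA3 a factor for cytochrome c oxidase assembly and DAG1 dystroglycan. All 12 samples share the lines and libraries. ALYREF, CHAF1B and DAG1 are all signature genes chosen for the same contrast, so this likeness is a description.

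Since these 2 genes moved alike, their promoters are shown, from 250 bases before to 50 bases after the start site in RefSeq (GRCh38.p14). They are given 5′ to 3′ on the strand of the gene, for ALYREF at chr17:81891537-81891836 on the minus strand and for CHAF1B at chr21:36385142-36385441 on the plus strand. Capitals mark exact matches, on either strand, to 4 motifs. The GC box was searched as GGGCGG and the CCAAT box by the letters of its name. The TATA box was searched as TATAAA. The E2F site was searched as TTTCCCGC, TTTCGCGC, TTTGCCGC or TTTGGCGC.
ALYREF: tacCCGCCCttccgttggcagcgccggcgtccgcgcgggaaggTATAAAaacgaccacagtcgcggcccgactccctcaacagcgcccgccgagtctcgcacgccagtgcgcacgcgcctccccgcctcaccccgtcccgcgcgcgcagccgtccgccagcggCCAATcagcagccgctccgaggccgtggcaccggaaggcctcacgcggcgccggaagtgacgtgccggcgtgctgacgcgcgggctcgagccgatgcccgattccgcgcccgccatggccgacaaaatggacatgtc
CHAF1B: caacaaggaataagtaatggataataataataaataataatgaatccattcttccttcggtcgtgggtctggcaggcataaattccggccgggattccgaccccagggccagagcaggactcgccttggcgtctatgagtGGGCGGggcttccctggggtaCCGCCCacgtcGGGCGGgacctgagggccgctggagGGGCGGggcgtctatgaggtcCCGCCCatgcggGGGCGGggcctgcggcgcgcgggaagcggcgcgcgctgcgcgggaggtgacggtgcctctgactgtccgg
The CHAF1B window held 6 GC boxes and no match to the other motifs, and 44.95% of the 35116 promoter windows in the table held at least 1 GC box. ALYREF had 1 match to the GC box, 1 to the CCAAT box (34.6% of all windows) and 1 to the TATA box (11.5%). The TATAAA match lies near the upstream end of the window, far from the start site, and is a match of letters only. Both windows were rich in CpG, with 50 in ALYREF and 30 in CHAF1B against a median of 14. Neither window held the E2F letters, which occurred in 3.31% of windows; this says nothing about binding of the factor.

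ATAD3A lies near the end of chromosome 1 (1512151 to 1534687, plus strand). Its level was 12.7, 10.7 and 15.6 FPKM in resistant Huh7 samples against 7.61, 5.88 and 6.67 FPKM in parental ones, without overlap. The resistant HepG2 samples had 5.95, 14.7 and 12.2 FPKM and the parental ones 3.13, 4.08 and 6.09 FPKM. Resistant replicate 1 of HepG2 stood well below the other resistant samples and within the parental range. The ratio of means was 1.93-fold in Huh7 and 2.47-fold in HepG2, and the SD of the resistant HepG2 samples, 4.51 FPKM around a mean of 10.9 FPKM, was the widest relative spread among the 6 genes (41.2%). Without that replicate, the log2(FPKM + 1) difference in HepG2 moved from 1.09 to 1.44. By mean, the groups ranked resistant Huh7, resistant HepG2, parental Huh7 and parental HepG2, and each neighbouring pair overlapped.

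ATAD3A has near-identical copies beside it, ATAD3B and ATAD3C, and reads may be split between them in a way that was not given in the sources used here. Over 1758 aligned coding bases, ATAD3A and ATAD3B were identical at 95.7%, and over 1229 bases ATAD3A and ATAD3C at 94.2%. Of the 3168 stretches of 100 bases in ATAD3A transcripts, 15.4% also occurred in a transcript of another gene, 14.0% in ATAD3B and 3.72% in ATAD3C. For ALYREF, MFSD5, NR3C2 and CHAF1B no such stretch was shared, and for SORBS2 0.252% were. The start of the longest coding exon that aligned without gaps shows bases by which the copies can be told apart. It spans chr1:1527695-1527784 in ATAD3A, chr1:1490257-1490346 in ATAD3B and chr1:1460750-1460839 in ATAD3C (GRCh38, plus strand, GENCODE transcripts), and capitals mark bases that differ from ATAD3A.
ATAD3A: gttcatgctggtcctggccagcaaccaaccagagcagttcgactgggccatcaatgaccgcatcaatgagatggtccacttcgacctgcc
ATAD3B: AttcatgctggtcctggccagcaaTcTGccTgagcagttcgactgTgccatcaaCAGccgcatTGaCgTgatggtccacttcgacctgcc
ATAD3C: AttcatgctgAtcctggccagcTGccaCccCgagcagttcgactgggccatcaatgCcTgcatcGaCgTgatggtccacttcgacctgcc
ATAD3B differed at 13 and ATAD3C at 11 of these 90 bases, a larger share than over the whole coding alignment. In Huh7 all 3 copies were higher in resistant cells without overlap. In HepG2 the means of ATAD3A and ATAD3B were higher in resistant cells, with overlapping groups, and ATAD3C was lower. ATAD3B rose in Huh7, from 2.13 ± 0.39 to 6.06 ± 1.28 FPKM (SD, n = 3; log2 difference 1.16 ± 0.16 SE, limma adjusted p = 0.0003; 0.64 with the GC trend of each library taken off), and was at 2.43 ± 1.13 and 4.07 ± 1.11 FPKM in parental and resistant HepG2 (adjusted p = 0.139). ATAD3C was at 5.90 ± 1.53 FPKM in parental HepG2 and 2.98 ± 0.50 FPKM in resistant HepG2, a log2 difference of -0.78 ± 0.19 (limma adjusted p = 0.0246). In Huh7 it stood at 0.115 and 0.487 FPKM, too low to be tested.

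MFSD5 lies on chromosome 12 (53251251 to 53254405, plus strand). It had 34.2, 27.1 and 29.2 FPKM in resistant Huh7 samples and 17.1, 15.6 and 11.7 FPKM in parental ones. The HepG2 values were 19.0, 22.6 and 21.1 FPKM in resistant samples and 6.29, 9.55 and 6.36 FPKM in parental samples. Both lines were without overlap, and the ratio of means was 2.04-fold in Huh7 and 2.82-fold in HepG2. The log2 FPKM change of Huh7 minus that of HepG2 was -0.49 ± 0.29 (SE). The groups ranked as for ALYREF, here with no overlap between neighbours. The most like profiles were those of FAM83D (0.159), CCNB1 (0.167) and ORC1 (0.175). CCNB1 is cyclin B1, which drives entry into mitosis, ORC1 is part of the complex that marks replication origins, and FAM83D is a protein of the mitotic spindle.

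NR3C2 lies on chromosome 4 (148078762 to 148444698, minus strand) and was low in all groups. It was at 0.503, 0.651 and 0.541 FPKM in resistant Huh7 samples and at 2.90, 3.08 and 3.08 FPKM in parental ones. The resistant HepG2 samples had 0.295, 0.232 and 0.255 FPKM and the parental ones 1.12, 0.936 and 1.00 FPKM. Resistant cells were 5.35-fold lower in Huh7 and 3.91-fold lower in HepG2, with wide gaps between the groups in both. No neighbouring groups overlapped in the order parental Huh7, parental HepG2, resistant Huh7 and resistant HepG2. These levels rest on 329 to 344 reads per sample in parental Huh7, but on 28 to 33 reads in resistant HepG2. The log2 FPKM change of Huh7 minus that of HepG2 was -0.46 ± 0.17 (SE), so the difference was larger in Huh7.

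The NR3C2 promoter is shown as that of a gene that stood lower (RefSeq, GRCh38.p14, chr4:148444649-148444948, minus strand, with capitals as above).
NR3C2: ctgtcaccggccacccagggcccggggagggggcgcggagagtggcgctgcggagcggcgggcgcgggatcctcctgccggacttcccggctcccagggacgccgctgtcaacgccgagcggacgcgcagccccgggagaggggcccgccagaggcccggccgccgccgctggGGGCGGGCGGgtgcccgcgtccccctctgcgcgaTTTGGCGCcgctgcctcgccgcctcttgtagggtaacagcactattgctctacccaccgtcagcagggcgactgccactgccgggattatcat
It held 2 overlapping GC boxes and 1 E2F match, with a GC content of 75% and 38 CpG. The windows of ALYREF (72.7% GC), CHAF1B (64.3%), ATAD3A (78.3%) and NR3C2 were above the median of 58.7% over all windows and that of SORBS2 was below it (47%, with 8 CpG, no GC box and 1 CCAAT box). The window of ATAD3A, a higher gene, also held 1 E2F match, with 7 GC boxes. The RefSeq starts of SORBS2 and ATAD3A lie 280 and 379 bases inside the gene from its 5′ end at the coordinates given here. Their windows, chr4:185956323-185956622 and chr1:1512280-1512579, thus lie wholly within the gene. The matches and GC content of these windows are not those of sequence before the gene's 5′ end.

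SORBS2 lies on the same chromosome (185585444 to 185956652, minus strand) and was the lowest of the 6 genes in Huh7. It was at 0.0536, 0.0961 and 0.123 FPKM in resistant Huh7 samples, or 17, 31 and 39 reads, and at 0.660, 0.717 and 0.825 FPKM in parental ones, or 198 to 223 reads. In HepG2 it had 0.911, 0.680 and 0.781 FPKM in resistant samples and 2.25, 1.80 and 2.41 FPKM in parental ones. The ratio of means was 8.09-fold lower in resistant Huh7 and 2.72-fold lower in resistant HepG2. The log2 FPKM change of Huh7 minus that of HepG2 was -1.65 ± 0.41 (SE), the widest gap between the lines among the 6 genes. In the order parental HepG2, resistant HepG2, parental Huh7 and resistant Huh7, the middle pair overlapped and the others did not.

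In the fits over all genes, a gene was called where its adjusted p was under 0.05 and its log2(FPKM + 1) difference lay beyond 1. These thresholds follow the study's methods, which do not say on which scale the fold change was taken. For the 6 genes, whose choice used these contrasts, only the size of the difference is described. In Huh7 it lay beyond 1 for 3 of the 6 genes, ALYREF (1.20), CHAF1B (1.24) and NR3C2 (-1.36), where 8.59% of all genes tested were called higher and 14% lower. MFSD5 (0.99), ATAD3A (0.85) and SORBS2 (-0.67) lay inside 1. No resistant Huh7 sample reached 1 FPKM for NR3C2, which met the expression limit through parental cells alone, and no Huh7 sample did for SORBS2. In HepG2 the difference lay beyond 1 for 4 of the 6 genes, ALYREF (1.15), MFSD5 (1.40), ATAD3A (1.09) and CHAF1B (1.11), where 3.29% of all genes were called higher and 2.98% lower. SORBS2 (-0.81) and NR3C2 (-0.68) lay inside 1. No resistant HepG2 sample reached 1 FPKM for SORBS2, which met the expression limit through parental cells alone. For NR3C2 fewer than 3 HepG2 samples reached 1 FPKM. The side of the limit depends on the scale: on the log2 FPKM scale, with nothing added, MFSD5 was at 1.04 in Huh7 and SORBS2 at -1.44 in HepG2. The added 1 in log2(FPKM + 1) compresses low genes, and with 0.1 in its place the difference of SORBS2 was -2.14 in Huh7 and -1.34 in HepG2, and that of NR3C2 was -2.24 and -1.63. Without HepG2 parental replicate 1 the count in HepG2 was 2, with ATAD3A at 0.91 and CHAF1B at 0.997. Nothing is read from these counts. The balance of calls in HepG2 depended on the scaling between samples: 387 genes were called higher and 350 lower as deposited, 285 and 428 with median-ratio scaling, and 309 and 406 with upper-quartile scaling.

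Within the signature of 70 genes, all of which were found in the tables, 29 had higher and 41 lower means in resistant cells in each line. Ordered by the ratio of means from the most changed, SORBS2 ranked 3 among the 41 lower genes in Huh7 and 17 in HepG2. NR3C2 ranked 9 and 8. Among the 29 higher genes, CHAF1B ranked 13 and 17, ALYREF 14 and 23, MFSD5 20 and 13, and ATAD3A 21 and 19. ATAD3A and CHAF1B also enter a risk score of the study with 2 lower genes, ADH4, an alcohol dehydrogenase of the liver, and PPARGC1A, a coactivator of mitochondrial genes. ADH4 was at 0.36 against 2.54 FPKM in resistant and parental Huh7 and at 3.08 against 17.7 FPKM in HepG2. PPARGC1A was at 0.0948 against 0.83 FPKM in Huh7 and at 5.01 against 11.7 FPKM in HepG2.

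The libraries differed in how GC-rich and GC-poor genes were represented, and in Huh7 this difference ran with resistance. In the 3 resistant Huh7 libraries the deviation of a gene from the mean of the line rose with its GC content (Spearman's rho 0.63, 0.41 and 0.66 over 12545 genes, which are not independent replicates), and in the 3 parental ones it fell (-0.42, -0.61 and -0.66). In HepG2 the libraries were mixed, with -0.52, 0.48 and 0.15 in resistant and -0.18, 0.29 and -0.27 in parental cells. ATAD3A (65.2% GC), ALYREF (57.5%) and MFSD5 (56.3%) had more GC than the median gene (46.7%), whereas CHAF1B (48.7%), SORBS2 (46.1%) and NR3C2 (44.5%) were close to it.

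**Figure D2:**
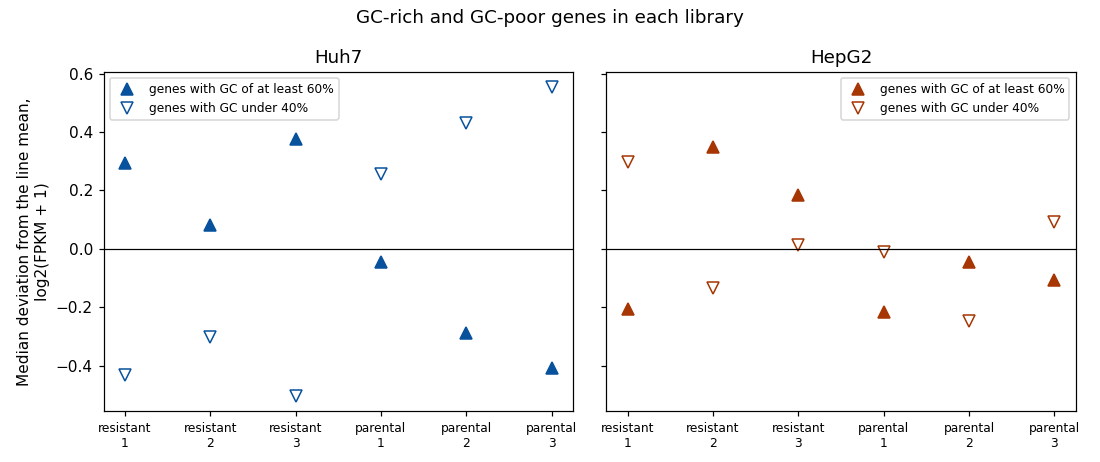
Median deviation from the mean of the line on the log2(FPKM + 1) scale (y axis) of genes with a GC content of at least 60% (filled) and under 40% (open), for each library (x axis). The GC-rich genes stood above the GC-poor genes in all 3 resistant Huh7 libraries and below them in all 3 parental ones; in HepG2, resistant replicate 1 had GC-rich genes at -0.21 and GC-poor genes at 0.30, unlike the other resistant libraries.

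With the GC trend of each library taken off, all 6 genes kept their direction in both lines. In Huh7 the log2(FPKM + 1) difference went from 1.20 to 0.67 for ALYREF, from 0.99 to 0.48 for MFSD5 and from 0.85 to 0.39 for ATAD3A. CHAF1B moved less, from 1.24 to 1.10, as did NR3C2, from -1.36 to -1.14, and SORBS2, from -0.67 to -0.60. The members with the most GC thus lost the larger share of their difference in Huh7. In HepG2 the values went from 1.15 to 1.04 for ALYREF, from 1.40 to 1.30 for MFSD5, from 1.09 to 0.78 for ATAD3A, from 1.11 to 1.06 for CHAF1B, from -0.68 to -0.75 for NR3C2 and from -0.81 to -0.88 for SORBS2. The low ATAD3A value of resistant HepG2 replicate 1 came from the library in which GC-rich genes were low; its part in that value was not tested. The genes most like ATAD3A over the 12 samples were RPUSD1 (0.126), BCL9L (0.166) and LRP3 (0.188). BCL9L is itself in the signature and was chosen for the same contrast.

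**Figure D3:**
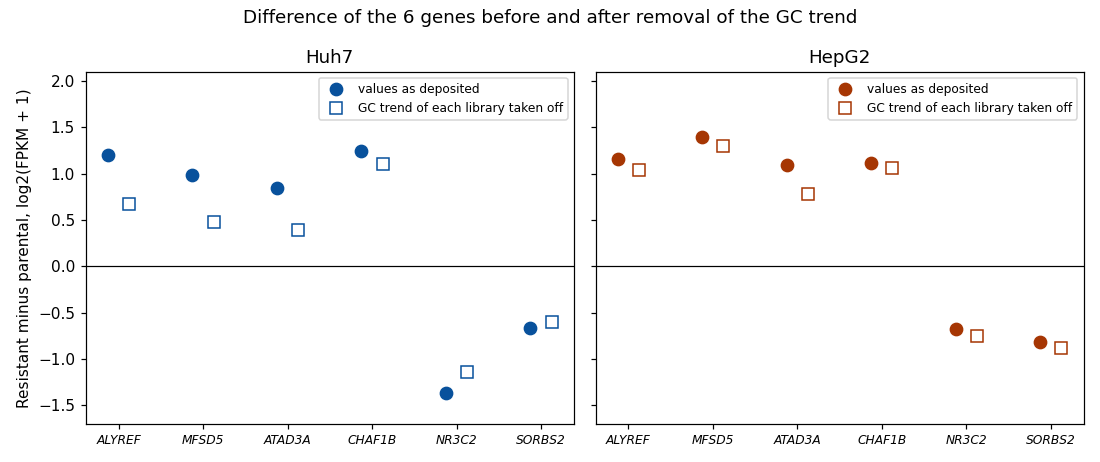
Difference of resistant minus parental means on the log2(FPKM + 1) scale (y axis) of the 6 genes, from the values as deposited (circles) and with the GC trend of each library taken off (squares). In Huh7 the squares of ALYREF, MFSD5 and ATAD3A lie at 0.67, 0.48 and 0.39, well below their circles, while CHAF1B stayed at 1.10.

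The rule did not use the comparison of the lines with each other, so the members were tested in it, with p-values adjusted over all genes. Among parental cells, 19.4% of 12796 genes were called higher and 12.5% lower in Huh7 than in HepG2. None of the 6 genes was called, although MFSD5 and NR3C2 passed an adjusted p of 0.05. MFSD5 was 2.00-fold higher in parental Huh7 (14.8 ± 2.8 against 7.40 ± 1.87 FPKM, SD, n = 3; log2 difference 0.92 ± 0.20 SE, limma adjusted p = 0.0038). NR3C2 was 2.97-fold higher (3.02 ± 0.10 against 1.02 ± 0.09 FPKM; 1.00 ± 0.11, adjusted p = 0.0001), and SORBS2 was 2.93-fold lower in Huh7 (0.734 ± 0.084 against 2.15 ± 0.32 FPKM; -0.86). No parental Huh7 sample reached 1 FPKM for SORBS2, which met the expression limit through HepG2 alone and so had to differ, and its value is given without a p-value. Both MFSD5 and NR3C2 lay close to the limit of 1: MFSD5 was at 1.07 without Huh7 parental replicate 3 and at 1.10 without HepG2 parental replicate 2, and NR3C2 was at 1.02 without Huh7 parental replicate 1 and at 1.03 without HepG2 parental replicate 1. With a pseudocount of 0.1 MFSD5, NR3C2 and SORBS2 were at 1.00, 1.48 and -1.43. ALYREF (0.33 ± 0.18, adjusted p = 0.131), ATAD3A (0.54 ± 0.21, adjusted p = 0.0501) and CHAF1B (0.40 ± 0.16, adjusted p = 0.0511) did not pass the test. With the GC trend taken off MFSD5 was called, at 1.11, and ALYREF (0.53, limma adjusted p = 0.0088), ATAD3A (0.65, adjusted p = 0.0107) and CHAF1B (0.36, adjusted p = 0.0275) passed an adjusted p of 0.05. The median of all genes was itself 0.19 higher in parental Huh7, or 0.05 with median-ratio scaling, under which MFSD5, NR3C2 and SORBS2 were at 0.76, 0.88 and -0.95.

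Among resistant cells, 14.4% of 12550 genes were called higher in Huh7 and 14.4% lower, and again none of the members was. CHAF1B was 1.48-fold higher in resistant Huh7 (12.4 ± 0.3 against 8.38 ± 1.23 FPKM; log2 difference 0.53 ± 0.12 SE, limma adjusted p = 0.0055), MFSD5 1.45-fold higher (30.2 ± 3.7 against 20.9 ± 1.8 FPKM; 0.51 ± 0.12, adjusted p = 0.0067) and ALYREF 1.32-fold higher (25.2 ± 2.9 against 19.1 ± 2.7 FPKM; 0.38 ± 0.14, adjusted p = 0.039). ALYREF was at 0.18 with the GC trend taken off (limma adjusted p = 0.16), and without a filter its adjusted p was 0.0655. For ATAD3A the difference was 0.30 ± 0.30 (adjusted p = 0.404), and it turned to -0.054 without resistant HepG2 replicate 1. NR3C2 and SORBS2 were under the limit of expression for a test there. By mean, resistant Huh7 cells had 2.17-fold more NR3C2 and 8.71-fold less SORBS2 than resistant HepG2 cells. By mean, the line with the higher level was the same before and after selection for each of the 6 genes, ATAD3A with the exception of the leave-out named above.

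To see whether genes that work with the members moved with them, 6 lists of partner genes were described, 138 genes in all. In Huh7, 8 of the 125 tested partners rose and 9 fell, where 8.59% and 14% of all genes did. In HepG2, 3 of 126 rose and 4 fell, where 3.29% and 2.98% of all genes did. These shares were close to or below the background in both lines. With the GC trend taken off, 13 of the 17 partners called in Huh7 fell inside the limit of 1. The other 4 were PHB2, SCNN1A, HSP90AA1 and PALLD, and RBBP7 was added. In HepG2 6 of 7 remained, and without resistant HepG2 replicate 1 the HepG2 count was 11.

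For the mRNA export list of ALYREF, none of the 23 tested genes rose past the limit in either line, and THOC1 and THOC2, core subunits of the THO complex, fell in Huh7. THOC1 went from 11.0 ± 2.1 to 3.43 ± 0.44 FPKM (log2 difference -1.43 ± 0.15 SE, limma adjusted p = 0.0001) and THOC2 from 14.7 ± 4.3 to 4.98 ± 0.73 FPKM (-1.37 ± 0.19, adjusted p = 0.0004). Both lay inside the limit with the GC trend taken off, at -0.68 and -0.59. Of the direct contacts of ALYREF, DDX39B and NXF1 lay inside the limit of 1 but were not unchanged. The helicase DDX39B, which loads ALYREF on RNA, was at 12.02 against 15.3 FPKM in Huh7 (-0.32 ± 0.12, limma adjusted p = 0.0399). In HepG2 it was at 16.9 against 23.7 FPKM (-0.47 ± 0.13, limma adjusted p = 0.0440). The receptor NXF1 was at 25.8 against 14.7 FPKM in Huh7 (0.77 ± 0.12, limma adjusted p = 0.0005). Its HepG2 level was 16.8 against 12.9 FPKM (0.35 ± 0.15, limma adjusted p = 0.137). The list had a median log2 difference of 0.14 in Huh7 and 0.20 in HepG2, beside -0.04 and 0.12 over all genes tested.

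For CHAF1B, 20 histone deposition genes were tested in each line. MCM2, a subunit of the replicative helicase that also binds histones, rose in both, from 34.3 ± 6.0 to 78.4 ± 12.9 FPKM in Huh7 (1.17 ± 0.17, limma adjusted p = 0.0004) and from 17.1 ± 2.7 to 38.2 ± 5.9 FPKM in HepG2 (1.12 ± 0.17, adjusted p = 0.0044; 0.996 without parental replicate 1). PCNA rose in HepG2, from 174.6 ± 9.8 to 395.3 ± 8.9 FPKM (1.18 ± 0.13, limma adjusted p = 0.0011), and was at 276.9 against 221.2 FPKM in Huh7. The histone chaperone HIRA rose in Huh7 (1.01 ± 0.13), but was at 0.91 without resistant replicate 3 and at 0.93 without parental replicate 3. In the same line the chromatin remodeller ATRX (-1.66 ± 0.24) and the replication repair factor MMS22L (-1.24 ± 0.13) fell. None of these Huh7 calls remained with the GC trend taken off: MCM2 was at 0.63, HIRA at 0.50, ATRX at -0.80 and MMS22L at -0.45. In HepG2 MCM2 was then at 0.995. CHAF1A, the large subunit that holds CHAF1B, did not follow it in Huh7: it was at 15.0 ± 0.6 against 12.6 ± 2.1 FPKM (0.24 ± 0.13, limma adjusted p = 0.113), and this difference turned to -0.29 with the GC trend taken off. In HepG2, CHAF1A was at 9.55 ± 1.57 against 4.50 ± 0.12 FPKM (0.93 ± 0.15, adjusted p = 0.0054), just inside the limit of 1, which it passed without resistant replicate 1 (1.05). The list median was 0.25 in Huh7 and 0.41 in HepG2.

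Among the mitochondrial partners of ATAD3A, 3 of 23 rose and 2 fell in Huh7, and none of 24 was called in HepG2. Besides ATAD3B, the prohibitin PHB2, a scaffold of the inner membrane, rose from 34.4 ± 3.8 to 105.6 ± 12.5 FPKM in Huh7 (1.59 ± 0.13). DNM1L, which divides mitochondria, fell by 1.41 on the log2 scale and the protease YME1L1 fell by 1.13. PHB2 was still called with the GC trend taken off, at 1.07, while DNM1L and YME1L1 were at -0.86 and -0.54. For MFSD5, none of the 20 tested genes of molybdenum cofactor synthesis, molybdenum enzymes and related carriers was called in Huh7. In HepG2 1 of 22 was, MARC2, a molybdenum enzyme of mitochondria, at 0.58 ± 0.17 FPKM in resistant and 2.28 ± 0.55 FPKM in parental cells (-1.04; -0.99 without resistant replicate 1). No resistant sample reached 1 FPKM for MARC2, so it was tested through parental cells alone and had to differ, and its value is a description.

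The corticosteroid list of NR3C2 held 20 tested genes in Huh7 and 19 in HepG2, and some moved in opposite directions in the lines. SCNN1A, the alpha subunit of the epithelial sodium channel and a target of the mineralocorticoid receptor in kidney, rose 8.60-fold in Huh7, from 2.01 ± 0.35 to 17.3 ± 2.1 FPKM (2.60 ± 0.13), and fell in HepG2 from 4.70 ± 1.29 to 1.71 ± 0.06 FPKM (-1.05 ± 0.19; -0.89 without parental replicate 1). HSP90AA1, a chaperone that holds steroid receptors ready for hormone, fell from 210.6 ± 59.8 to 70.5 ± 2.8 FPKM in Huh7 (-1.53 ± 0.18) and rose from 67.2 ± 21.4 to 163.2 ± 43.5 FPKM in HepG2 (1.29 ± 0.28), where it was at 0.997 without parental replicate 2. The cochaperone FKBP4 rose in Huh7 (1.19 ± 0.15; 0.89 with the GC trend taken off), and the phosphatase DUSP1 fell in HepG2 (-1.45 ± 0.23). The receptor closest to NR3C2, NR3C1, was higher in level than NR3C2 in all groups: it was at 7.08 ± 0.41 against 10.4 ± 0.6 FPKM in Huh7 (-0.50 ± 0.10, limma adjusted p = 0.0023) and at 7.01 ± 1.43 against 9.31 ± 2.45 FPKM in HepG2 (-0.35 ± 0.21, adjusted p = 0.261). With the GC trend taken off, its difference in Huh7 turned to 0.22.

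Of the adhesion adaptors listed for SORBS2, 19 were tested in Huh7 and 18 in HepG2. PALLD, an actin-bundling protein, fell from 43.1 ± 4.3 to 11.8 ± 1.4 FPKM in Huh7 (-1.79 ± 0.12), as did the Ras activator SOS1, from 13.2 ± 2.0 to 4.92 ± 0.43 FPKM (-1.25 ± 0.13; -0.44 with the GC trend taken off). In HepG2 WASF2, which drives actin branching, fell from 114.1 ± 24.3 to 45.04 ± 3.62 FPKM (-1.30 ± 0.18). SORBS3, a paralog of SORBS2, was at 1.35 against 0.964 FPKM in Huh7 (0.26 ± 0.12, limma adjusted p = 0.0792) and at 4.88 against 2.90 FPKM in HepG2 (0.57 ± 0.17, adjusted p = 0.0511), and in Huh7 turned to -0.22 with the GC trend taken off.

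**Figure D4:**
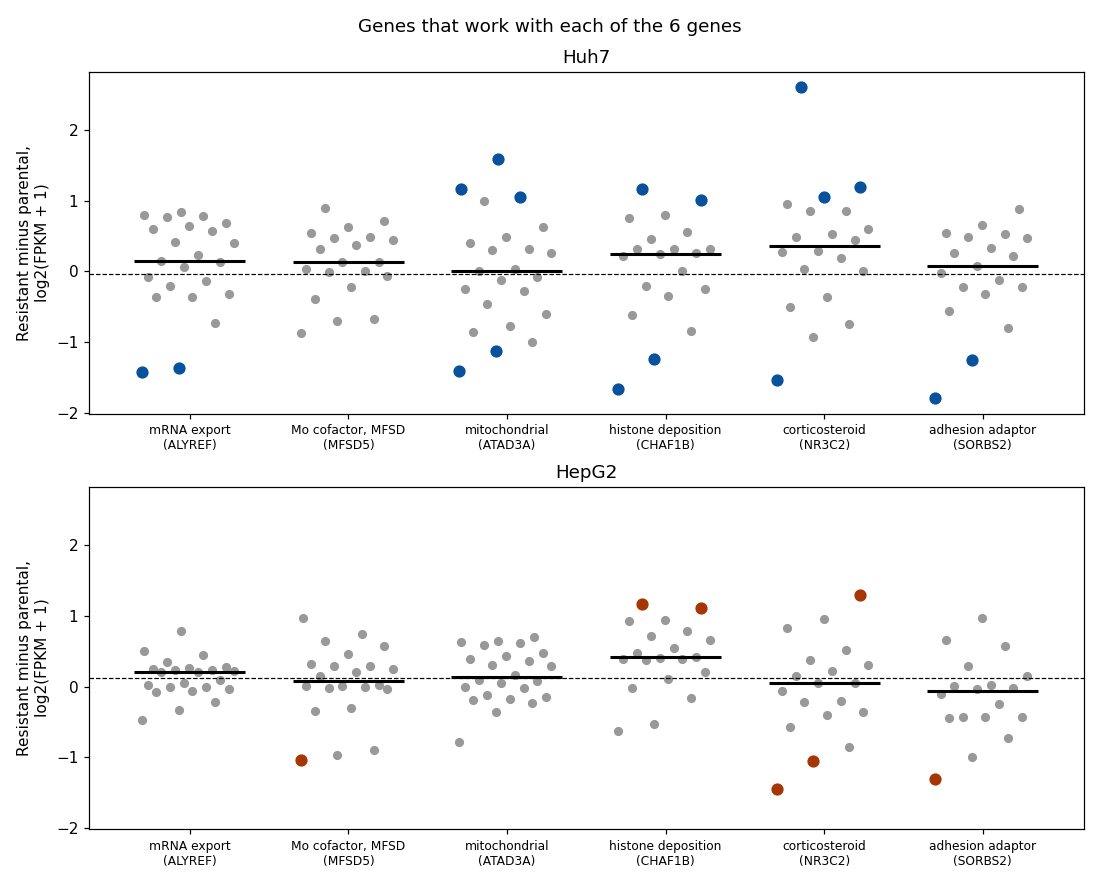
Difference of resistant minus parental means on the log2(FPKM + 1) scale (y axis) of each tested gene of the 6 partner lists (x axis), with coloured points for genes called, a bar at the list median and a dashed line at the median of all genes tested. The list medians lay between 0.01 and 0.36 in Huh7 and between -0.07 and 0.41 in HepG2.

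The genes beside the members on the chromosome were also examined, the 5 nearest protein-coding genes on each side. Of these, 56 were in the tables and 30 were tested in each line. In Huh7, 4 rose and 3 fell past the limit (background 8.59% and 14%), and in HepG2, 2 rose and none fell (background 3.29% and 2.98%). These counts are small and moved with single libraries, to 4 in Huh7 without parental replicate 2 or 3, and in HepG2 to 0 without resistant replicate 3 and 1 without parental replicate 1; with the GC trend taken off they were 1 and 4. Of the 3 that fell in Huh7, MAB21L2 and F11 met the expression limit through parental cells alone and so had to be lower. The other, CYP4V2, is in the signature, so the count of falls is a description. The neighbour past the limit in both lines was VWA1, 77.3 kb before ATAD3A by gene start, at 19.8 ± 5.3 against 8.44 ± 2.00 FPKM in Huh7 (0.71 on the log2 scale with the GC trend taken off) and at 27.7 ± 11.2 against 9.25 ± 1.87 FPKM in HepG2. It encodes a protein of the extracellular matrix and is itself in the signature, so its differences are a description. All 5 tested neighbours of SORBS2 in Huh7 and all 4 in HepG2 had lower means in resistant cells, where 51.8% and 39.04% of all genes tested did. One of them, CYP4V2, is a signature gene chosen for being lower. KLKB1 and F11 were tested in Huh7 through parental cells alone and so had to be lower there. In HepG2 the groups overlapped for F11 (-0.13) and UFSP2 (-0.17). The neighbours of SORBS2 too low to be tested had means on both sides in each line, so the tested counts are a description. With the NR3C2 neighbours in Huh7, 4 of 5 had lower means, among them MAB21L2, which had to be lower, and in HepG2 3 of 4.

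**Figure D5:**
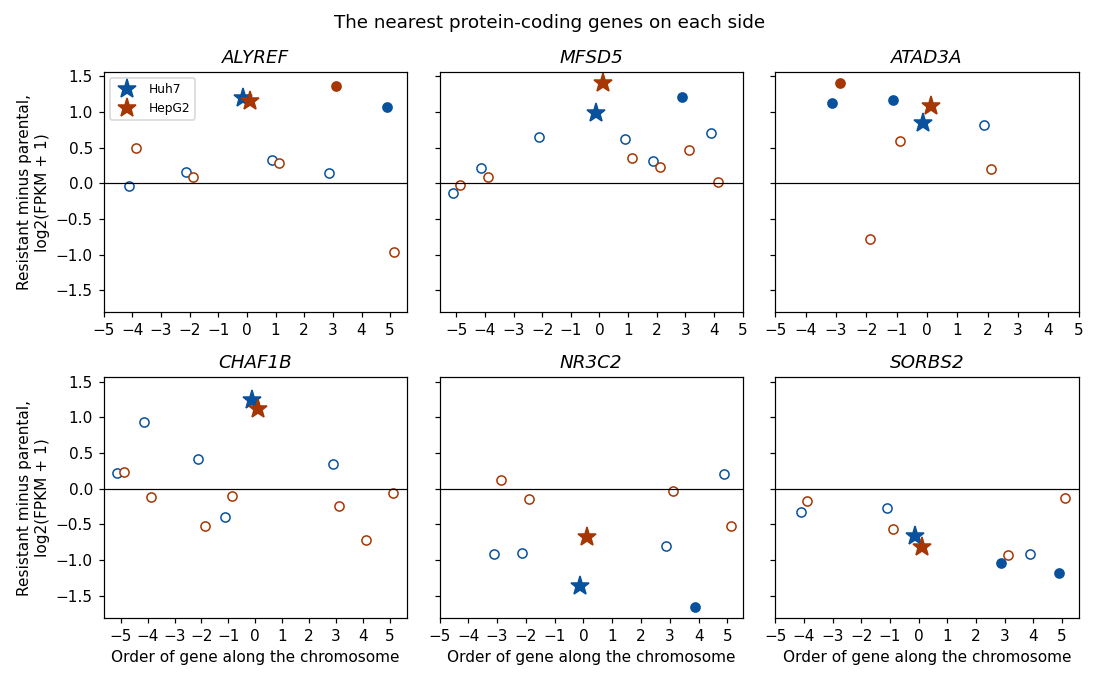
Difference of resistant minus parental means on the log2(FPKM + 1) scale (y axis) of each member (star) and its tested protein-coding neighbours (circles, filled where called), by their order along the chromosome (x axis), in Huh7 (blue) and HepG2 (brown). The tested neighbours of SORBS2 all lie under 0, from -1.19 to -0.13, while those of CHAF1B lie on both sides of 0. KLKB1 and F11 beside SORBS2 and MAB21L2 beside NR3C2 were tested in Huh7 through parental cells alone.

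Another 4 genes of the signature lie within 1000 kb of a member. Near SORBS2 these are LRP2BP (2.98-fold lower in resistant Huh7, 2.05-fold lower in resistant HepG2) and CYP4V2, a fatty acid hydroxylase (3.14-fold and 2.33-fold lower). Near ATAD3A they are VWA1 (2.34-fold and 2.99-fold higher) and CPTP, a lipid carrier (1.63-fold and 2.44-fold higher, with overlapping groups in both lines). Each thus stood on the same side as the member beside it, which the choice of the signature partly fixes. Exons also overlap with those of other genes at 62 bases of ALYREF (ANAPC11), at 89 bases of CHAF1B (MORC3) and at 208 bases of SORBS2 (2 antisense genes and a pseudogene). ANAPC11 and the 2 antisense genes lie on the other strand from the member, and the library kit does not mark strand. MORC3 and the pseudogene lie on the same strand as the member. Reads in these bases therefore cannot be assigned by strand, but they make up a small part of each gene.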

How the data were processed

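Total RNA libraries were prepared with a kit that does not mark strand and sequenced by a service provider. The submitters' processing notes name GRCh38 and bcl2fastq; the aligner and counter were not given in the sources used here. The tables deposited by the authors hold FPKM per gene and sample, a unit read from the values: for genes with a single exon in GENCODE release 29, 99.6% of the values of up to 2000 reads lie within 0.05 of a whole number of reads. Reads of a gene were calculated back from this step and the exon length; for SORBS2 the length that gives whole reads in all samples was used. Reads are not independent molecules, so read numbers speak of counting error only.

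Groups and replicate numbers came from the labels. Each of 4 comparisons took 6 samples, and a gene entered where 3 or more of them reached 1 FPKM. The test was that of limma 3.58.1 (R 4.3.3) on log2(FPKM + 1), two-sided, with variances moderated by empirical Bayes along a trend on mean expression. Calls need a Benjamini-Hochberg adjusted p under 0.05 over all genes tested and a log2 difference beyond 1. On simulated data with 200 genes changed by 2 on the log2 scale, 95.5% were recovered among 10100 genes in Huh7 and 96% among 9749 in HepG2. The ± values beside FPKM are SD over 3 samples, and those beside log2 differences are SE from limma, or from the group variances for changes on the log2 FPKM scale.

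The 6 genes, the partner lists and the tests were chosen with earlier results of these data known. Named are the 6 genes, up to 4 called partners per list and line and the paralogs, neighbours called in both lines, the other risk score genes and the 3 most like genes, chosen by the smallest root mean square difference of centred log2(FPKM + 1). DDX39B, NXF1, LRP2BP, CYP4V2, CPTP and CHAF1A were added after their values were seen, as were PCNA in Huh7, RBBP7, F11, UFSP2, KLKB1 and MAB21L2. Some genes that this rule takes are not reported here. Alternatives were a pseudocount of 0.1, no filter, limma-voom on reads, scaling by median ratios or by the upper quartile, removal of each library's GC trend (lowess, span 0.3), a replicate block and leaving out each sample. Genes under NONCODE identifiers (71462) were not used.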

Additional observations from a re-analysis of the deposited data

Results flagged for a closer look

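In 22 of the 138 partner genes every resistant sample lay above every parental sample in one line and below in the other, 9 of them higher in resistant Huh7 cells and 13 lower. Of the 122 tested in both lines, 19 did so. Among all genes tested, 35.2% were higher and 39.2% lower without overlap in Huh7, and 24.9% higher and 15.5% lower in HepG2. The share of all genes with opposite sides in the lines was not calculated, so the count is not read as a trait of the partners. Given here are the 7 of the 22 that were called in a line and the paralog ATAD3C. None of these differences between the lines was tested. The log2(FPKM + 1) differences of resistant minus parental cells were as follows. SCNN1A was at 2.60 in Huh7 and -1.05 in HepG2, and HSP90AA1 was at -1.53 in Huh7 and 1.29 in HepG2; both passed the thresholds in each line. WASF2 was at 0.66 in Huh7 and -1.30 in HepG2. ATAD3C was at 0.42 in Huh7, where it was too low for a test, and at -0.78 in HepG2. Another 4 of those given were lower in resistant Huh7 cells and higher in resistant HepG2 cells: THOC1 was at -1.43 in Huh7 and 0.45 in HepG2, THOC2 at -1.37 in Huh7 and 0.50 in HepG2, ATRX at -1.66 in Huh7 and 0.38 in HepG2, and DNM1L at -1.41 in Huh7 and 0.70 in HepG2. None of the 6 signature genes was in this group, an outcome that their choice by the same contrasts largely fixed.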

How the results depend on the processing

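All 6 genes kept their direction of resistant against parental cells in both lines under every alternative. With limma-voom on reads, 4295 genes were called in Huh7 instead of 2838 and 1157 in HepG2 instead of 737, and with the GC trend taken off 1490 were called in Huh7. Called partners in Huh7 went from 17 to 5 with the GC trend taken off, and in HepG2 from 7 to 14 with a pseudocount of 0.1 and to 15 with limma-voom. Called neighbours in Huh7 went from 7 to 12 with a pseudocount of 0.1, to 12 with limma-voom and to 1 with the GC trend taken off. In HepG2 they went from 2 to 4 with each of a pseudocount of 0.1, median-ratio scaling, limma-voom and the GC trend taken off, and to 0 without a filter. Leaving out each sample in turn gave 2 to 4 members past the limit in both lines, 4 to 9 neighbours in Huh7 and 0 to 3 in HepG2, and 14 to 22 partners in Huh7 and 6 to 11 in HepG2. With the GC trend taken off, CHAF1A turned to -0.29, NR3C1 to 0.22 and SORBS3 to -0.22 in Huh7, and between resistant lines ATAD3A ranged from -0.054, without resistant HepG2 replicate 1, to 0.53 over the samples left out. The cause of these changes was not tested. Same-numbered samples did not deviate together in all pairs (correlations from -0.23 to 0.08 in Huh7 and from -0.01 to 0.44 in HepG2), so the numbers were not taken to pair them; the replicate block gave 2841 calls in Huh7, 779 in HepG2, 4097 between parental and 3629 between resistant lines, against 2838, 737, 4081 and 3613 without it. Depth limits SORBS2 and NR3C2 most, which rest on 17 to 39 and 28 to 33 reads per sample in their lowest groups.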
